A study of Mus musculus with 12 samples.

Results

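Loss of p53 was compared with its presence in colon tumours of mice, pooled over the status of the microRNA miR-34a. All 12 RNA-seq libraries of the study enter the comparison. Those whose labels name a p53 deletion (3 p53 deficient and 3 double deficient libraries) form the 6 lacking p53, and the 3 wt and 3 miR-34a deficient libraries form the 6 with p53. The miR-34a status was kept as a second factor, so that each library lacking p53 is set against libraries of its own miR-34a status. Every tumour came from an FvB mouse that had received azoxymethane, a carcinogen that induces colon tumours, at 10 mg/kg into the abdominal cavity once weekly for 6 weeks, and the experiments ended at week 16 after the first injection. The deletions of miR-34a and p53 are given for intestinal epithelial cells, and neither the driver of the deletions nor the deleted part of each gene is stated in the labels. Wild-type tumours in this sense have both genes but share the strain and the carcinogen with the other 3 genotypes. Whether the 3 libraries of a genotype came from separate mice is not stated, so the p-values measure the spread between these libraries. In bulk tumour RNA, fewer cells of a type and less RNA per cell cannot be told apart.

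The p53 protein is a transcription factor that cells stabilise after DNA damage and other stress. It binds pairs of short half-sites near its target genes and raises genes that stop the cell cycle, start apoptosis, repair DNA and alter metabolism, among them genes that feed back on p53 itself. It lowers many cell cycle genes indirectly, through its target p21 and the DREAM repressor complex, and miR-34a is itself transcribed from a p53 target gene. Loss of p53 is a frequent step in human colorectal carcinoma.

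Values are normalised expression values per gene, rounded to whole numbers, so the read depth behind them is unknown. Differences are log2 of value + 1, libraries lacking p53 minus libraries with p53, ± SE, with n = 6 against 6. A gene was called at a Benjamini-Hochberg adjusted p under 0.05 over the 21322 genes whose mean value reached 1. Epithelial marker genes were high in every library, with Epcam between 60419 and 144005 and Cdh1 between 51989 and 80438. Every library thus carried these epithelial markers, which do not by themselves tell colon from other epithelium. Some libraries stood apart. The squamous keratin gene Krt5 had a value of 115764 in miR-34a deficient 3 and of at most 200 elsewhere. In p53 deficient 2 the posterior Hox genes had a mean log2 level of 7.97, against 11.2 to 14.5 elsewhere. The mean log2 level of the Y-linked genes was between 0.25 and 0.79 in double deficient tumours, 0 in wt 1 and miR-34a deficient 1, and between 2.77 and 6.98 in the other libraries. The X-linked RNA gene Xist was at 563257 to 2878644 in double deficient tumours. It was at 15086160 in wt 1, at 53418083 in miR-34a deficient 1 and at 107 to 126761 in the other libraries. These genes depend on the sex of the mouse, which was no term of the main fit. With the mean Y-linked level as a covariate 843 genes were called, 384 higher and 459 lower in tumours lacking p53. The part of sex itself in the differences was not tested. Within genotypes the libraries varied in 7 independent directions rather than the 8 that the design allows, and 47.2% of the squared weight of the absent direction lay on double deficient 3. The main fit counts that direction as a residual degree of freedom, so its SE and p-values may be too small. Counts of called list members from a fit with that direction as a covariate are therefore given as well.

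Of the 21322 genes, 1027 (4.82%) were called, 461 of them higher (2.16%) and 566 lower (2.65%) in tumours lacking p53. Called genes with a change of at least 2 times numbered 115 higher and 315 lower. In 606 genes (2.84%) the 6 libraries of one side did not overlap with the 6 of the other. With the absent direction as a covariate 299 genes (1.4%) were called, 136 higher (0.638%) and 163 lower (0.764%). This covariate leaves the differences unchanged and raises their p-values, so the 299 lie among the 1027 by construction. Without double deficient 3 the count was 92, and it was between 267 and 595 without any 1 of wt 1, wt 2, the miR-34a deficient libraries, p53 deficient 3 or double deficient 2. The median difference of all genes was -0.06, and 9487 genes (44.5%) lay above 0. Counts above or below 0 in the gene lists are to be read beside that share. The share of calls that were higher was 44.9%, and it was 59.8% after quantile normalisation, which moved the median to 0.02.

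Trp53, the gene of p53 (GRCm38 chr11:69580359-69591873), stood at 4512, 4305 and 4126 in the 3 wt libraries and at 4357, 3466 and 5120 in the miR-34a deficient ones. With p53 deleted the values were 598, 401 and 576 (p53 deficient) and 924, 504 and 724 (double deficient). The highest value lacking p53, in double deficient 1, was well below the lowest with p53, in miR-34a deficient 2. Trp53 fell by 2.83 ± 0.17 on the log2 scale (adjusted p = 1.77e-05), which is 7.13 times. The Trp53 values went with the labels in all 12 libraries.

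Of the 13 genes tested that stop the cell cycle, 3 fell, none rose, and the median was -0.64 against -0.06 over all genes. The largest fall with the smallest p was that of Fam212b, now named Inka2, an inhibitor of the kinase PAK4. Fam212b had values of 377, 576 and 285 in wt, 324, 720 and 463 in miR-34a deficient, 35, 27 and 22 in p53 deficient and 48, 30 and 23 in double deficient tumours. Every Fam212b value lacking p53 lay below every value with p53, and the fall was 3.82 ± 0.27 on the log2 scale (adjusted p = 4.24e-05), 14.1 times. Zmat3, an RNA-binding protein gene, fell by 1.18 ± 0.18 (adjusted p = 0.00979), also without overlap. The scaffold gene Sfn (14-3-3 sigma), with values between 7849 and 63863 in libraries lacking p53 and between 15436 and 36458 in those with p53, differed by -0.01 ± 0.36 (adjusted p = 0.995).

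The third arrest gene that fell was Cdkn1a, the gene of the cyclin-dependent kinase inhibitor p21. Cdkn1a had values of 22035, 35763 and 11867 in wt, 17793, 24443 and 24519 in miR-34a deficient, 9454, 10113 and 12694 in p53 deficient and 5448, 7855 and 6695 in double deficient tumours. Double deficient tumours had the lowest Cdkn1a values, and wt 3 lay below p53 deficient 3, so the sides overlapped. Cdkn1a fell by 1.36 ± 0.24 on the log2 scale (adjusted p = 0.0170), 2.57 times, and missed the threshold without double deficient 3 (adjusted p = 0.0555). Cdkn1a was still expressed in every tumour lacking p53, at 5448 or more.

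Among 7 genes that act back on p53, 2 fell and none rose, with a median of -0.29. Ccng1, which encodes cyclin G1, had values of 5125, 4437 and 3217 in wt, 4404, 4149 and 5149 in miR-34a deficient, 1764, 1665 and 1363 in p53 deficient and 1402, 1228 and 1261 in double deficient tumours. The highest Ccng1 value lacking p53 was well below the lowest with p53. Ccng1 fell by 1.60 ± 0.14 on the log2 scale (adjusted p = 0.000222), 3.04 times. Pidd1, a death domain protein that activates caspase-2, fell by 0.81 ± 0.12 (adjusted p = 0.0107). Mdm2, the ubiquitin ligase that degrades p53, did not pass. It ranged from 3533 to 5088 with p53 and from 3103 to 4296 without, a difference of -0.29 ± 0.11 (adjusted p = 0.143).

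RefSeq promoters (GRCm38.p6, 250 bases before to 50 after each start) were searched for pairs of p53 half-sites with at most 3 bases between them and at most 1 of 20 letters outside the consensus. The half-site reads the same on both strands, so one scan covers both. Pairs were found in 29 of the 14061 genes tested that had a promoter sequence (0.206%) and in 72 of all 32851 promoters (0.219%). They were found in 5 of 403 genes called lower (1.24%), in 1 of 339 called higher (0.295%) and in 2 of 62 genes of the p53 target lists (3.23%). The pairs of the 6 called genes are shown because they place the values beside the letters that p53 is known to read. Each is written 5′ to 3′ on the strand of the gene, with the fixed C and G of each half-site and the bases between them in capitals.
Cdkn1a, chr17:29090928-29090947, plus strand: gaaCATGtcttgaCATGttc
Ccng1, chr11:40755462-40755481, minus strand: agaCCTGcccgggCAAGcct
Rps27l, chr9:66946296-66946315, plus strand: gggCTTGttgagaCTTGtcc
Calhm2, chr19:47138451-47138470, minus strand: gggCAAGcctaggCAAGatc
1700007K13Rik, chr2:28466285-28466305, minus strand: agaCTTGatctgggCTAGttt
Mthfd1, chr12:76255090-76255109, plus strand: aaaCTTGctcagaCAGGccc
Each pair has 1 letter outside the consensus. The Cdkn1a pair lies 51 to 32 bases before the RefSeq start and the Ccng1 pair 195 to 176 bases before it. Rps27l, a ribosomal protein S27-like gene, ranged from 3115 to 3948 in tumours lacking p53 and from 3968 to 5523 with p53, without overlap. Rps27l fell by 0.42 ± 0.09 (adjusted p = 0.0290) and Calhm2 fell by 0.59 ± 0.15 (adjusted p = 0.0459). Mthfd1, a folate enzyme gene, was the one that rose, by 0.51 ± 0.10 (adjusted p = 0.0213). Without double deficient 3 the adjusted p was 0.0840 for Rps27l, 0.122 for Calhm2 and 0.0681 for Mthfd1. 1700007K13Rik had values of 0 or 1 in tumours lacking p53 and up to 10 with p53. A matching pair is a description of these letters, and binding was not measured.

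**Figure D1:**
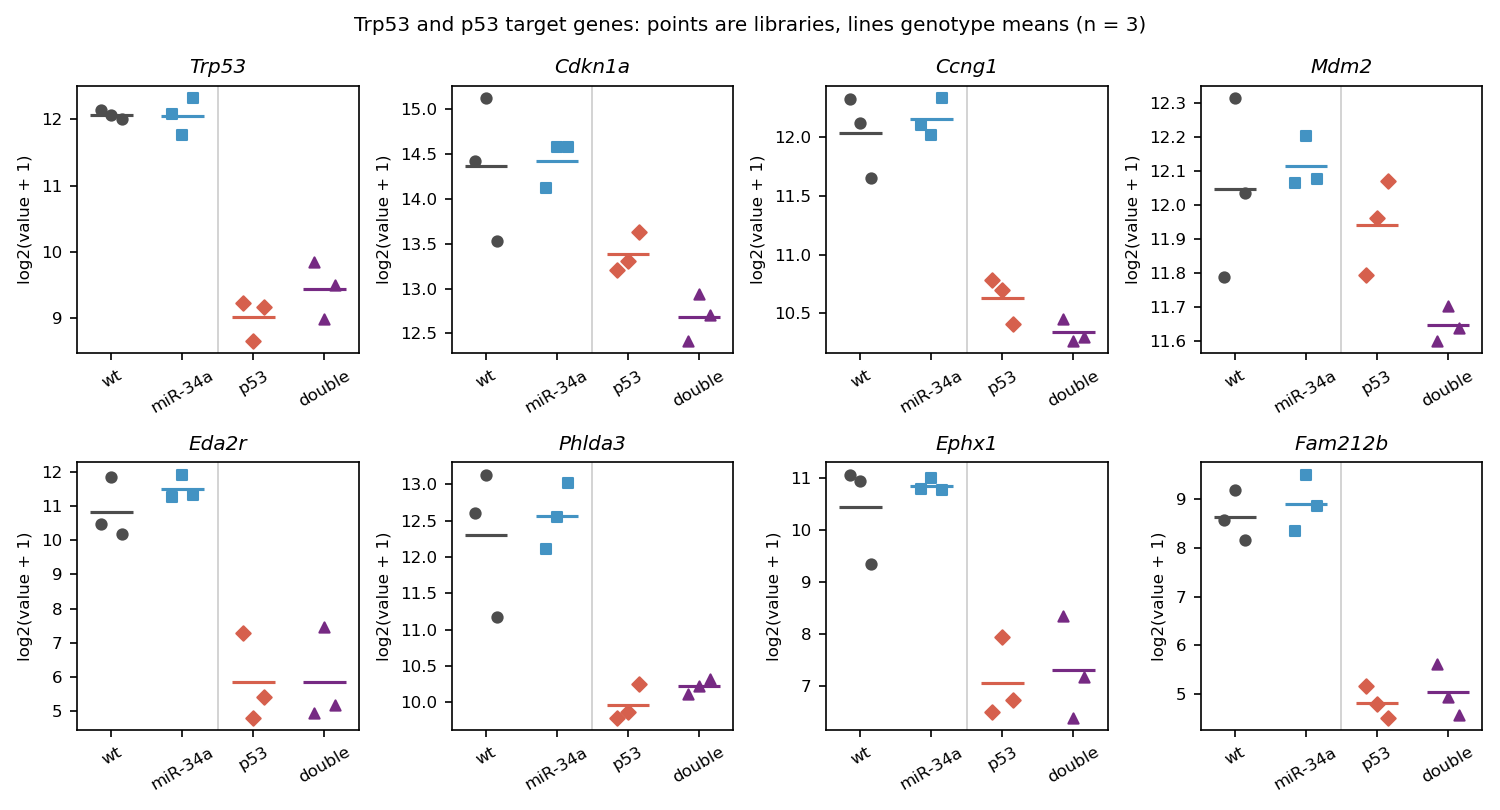
Values of Trp53 and 7 p53 target genes in each library on a log2(value + 1) axis that does not start at 0, with points for libraries, lines for genotype means (n = 3) and 1 panel per gene. Eda2r, Phlda3, Ephx1, Fam212b and Ccng1 are lower in the 6 libraries lacking p53 than in any of the 6 with p53, Cdkn1a overlaps through wt 3, and Mdm2 overlaps and did not pass.

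Of 13 apoptosis genes, 4 fell and none rose, with a median of -0.34. The largest fall was that of Eda2r, a receptor of the tumour necrosis factor receptor family on chromosome X. Eda2r had values of 1411, 3671 and 1164 in wt, 2452, 3878 and 2581 in miR-34a deficient, 155, 27 and 42 in p53 deficient and 30, 174 and 35 in double deficient tumours. The highest Eda2r value lacking p53 was 174 and the lowest with p53 was 1164. The fall was 5.32 ± 0.51 on the log2 scale (adjusted p = 0.000709), 39.9 times, and it was the largest among named genes.

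Phlda3, which competes with AKT for membrane lipids, had values of 6258, 8986 and 2312 in wt, 4410, 6014 and 8268 in miR-34a deficient, 883, 928 and 1221 in p53 deficient and 1106, 1193 and 1281 in double deficient tumours. Phlda3 fell by 2.34 ± 0.27 (adjusted p = 0.00346), 5.06 times, without overlap. Bbc3, the gene of the BH3-only protein PUMA, fell by 1.39 ± 0.26 (adjusted p = 0.0185) with overlap through wt 3, and had an adjusted p of 0.0547 without double deficient 3. Ei24, an endoplasmic reticulum protein gene, fell by 0.34 ± 0.08 (adjusted p = 0.0329), but passed in 5 of the 12 fits that left out 1 library (highest adjusted p = 0.0943, without double deficient 3).

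The other named death genes did not pass. Bax, the pore-forming effector of mitochondrial apoptosis, had values from 1836 to 3220 lacking p53 and from 2755 to 6216 with p53, a difference of -0.65 ± 0.19 (adjusted p = 0.0666). Pmaip1, the gene of NOXA, differed by -0.01 ± 0.17 (adjusted p = 0.978). Perp, a desmosome protein gene, differed by -0.17 ± 0.11 (adjusted p = 0.356), and Trp53inp1, which modulates p53 and autophagy, by -0.86 ± 0.31 (adjusted p = 0.119). Differences among the named death genes thus ranged from a fall of 39.9 times in Eda2r to a value near 0 in Pmaip1. Of the 13 apoptosis genes 2 lay above 0.

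Metabolic and redox targets had a median of -0.70, and 5 of 15 fell with none higher. Ephx1, the microsomal epoxide hydrolase, had values of 2130, 1957 and 644 in wt, 1756, 2032 and 1742 in miR-34a deficient, 90, 244 and 105 in p53 deficient and 325, 83 and 143 in double deficient tumours. The lowest Ephx1 value with p53 (wt 3) was still above the highest without it. Ephx1 fell by 3.46 ± 0.38 on the log2 scale (adjusted p = 0.00257). 9030617O03Rik, now named Dglucy and coding for D-glutamate cyclase, had values of 561, 504 and 302 in wt, 458, 537 and 494 in miR-34a deficient, 108, 127 and 85 in p53 deficient and 85, 99 and 82 in double deficient tumours. It fell by 2.26 ± 0.19 (adjusted p = 0.000222), 4.80 times, without overlap.

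Sesn2, a stress sensor that restrains mTORC1, had a median of 901 in tumours lacking p53 and 2145 with p53, and fell by 1.24 ± 0.18 (adjusted p = 0.00979) without overlap. Gls2, a mitochondrial glutaminase, fell by 1.15 ± 0.25 (adjusted p = 0.0268) and Aldh4a1, an enzyme of proline breakdown, fell by 0.88 ± 0.21 (adjusted p = 0.0349). Both overlapped between sides and missed the threshold without double deficient 3 (adjusted p = 0.0808 for Gls2 and 0.0999 for Aldh4a1). Of 6 DNA repair targets 1 fell, the translesion polymerase Polk, which fell by 0.80 ± 0.19 (adjusted p = 0.0337, and 0.0928 without double deficient 3). The repair list had a median of -0.20.

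Of 19 other targets, 2 fell and 1 rose, with a median of 0.02. Psrc1, a mitotic spindle protein gene, had values of 362, 865 and 389 in wt, 328, 803 and 317 in miR-34a deficient, 70, 93 and 86 in p53 deficient and 158, 107 and 84 in double deficient tumours. Psrc1 fell by 2.26 ± 0.30 (adjusted p = 0.00536), 4.80 times, without overlap. Sytl1, a vesicle transport gene, fell by 1.00 ± 0.25 (adjusted p = 0.0444, and 0.117 without double deficient 3).

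Over the 6 target lists 73 genes were tested, of which 17 fell, 1 rose and 55 did not pass. The median difference was -0.29, and 53 of 73 lay below 0, while 44.5% of all genes lay above 0. Over all genes 2.65% were called lower and 2.16% higher. Under the covariate for the absent direction 12 fell and 1 rose. Those that fell there were 3 arrest genes, 2 that act back on p53, 3 apoptosis genes (Ei24 was lost), 3 metabolic genes (Gls2 and Aldh4a1 were lost) and 1 other target (Psrc1), and Polk did not pass. Without double deficient 3 the number that fell was 10. None of 16 p53 regulators and family members passed, and their median was 0.02. Mdm4, the partner of MDM2, differed by -0.41 ± 0.13 (adjusted p = 0.0799). Cdkn2a, which encodes p16 and the MDM2 inhibitor p19ARF, ranged from 3392 to 17353 with p53 and from 6835 to 22440 without, a difference of 1.10 ± 0.44 (adjusted p = 0.159).

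The p53 difference was also taken within each miR-34a background, p53 deficient against wt and double deficient against miR-34a deficient, which share no library. Of the 73 targets 42 were lower in both. The sign was the same in both backgrounds for 55 of the 73, and for 13524 of all 21322 genes (63.4%). The differences with miR-34a present and with it lost were -1.40 and -1.81 for Ccng1, -2.34 and -2.34 for Phlda3, -3.38 and -3.54 for Ephx1, and -4.99 and -5.65 for Eda2r. Cdkn1a was at -1.74 with miR-34a lost, where it was called, and at -0.98 with miR-34a present, where it was not called. In all, 5 genes (0.0234%) were called with miR-34a present, which were Trp53, Fam212b, Ccng1, 9030617O03Rik and Sat2, and 193 (0.905%) with miR-34a lost. At an unadjusted p under 0.05 there were 3265 (15.3%) and 3842 genes (18%). Without p53 deficient 1 the former count was 88, and without double deficient 3 the latter was 23. Of the targets, 3 were called in the former and 10 in the latter. Interaction was called for 5 genes (0.0234%), with 1683 (7.89%) at an unadjusted p under 0.05. No p53 target passed the interaction test, in which the smallest adjusted p among them was 0.335 (Bid), so a difference of these responses between backgrounds was not detected.

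**Figure D2:**
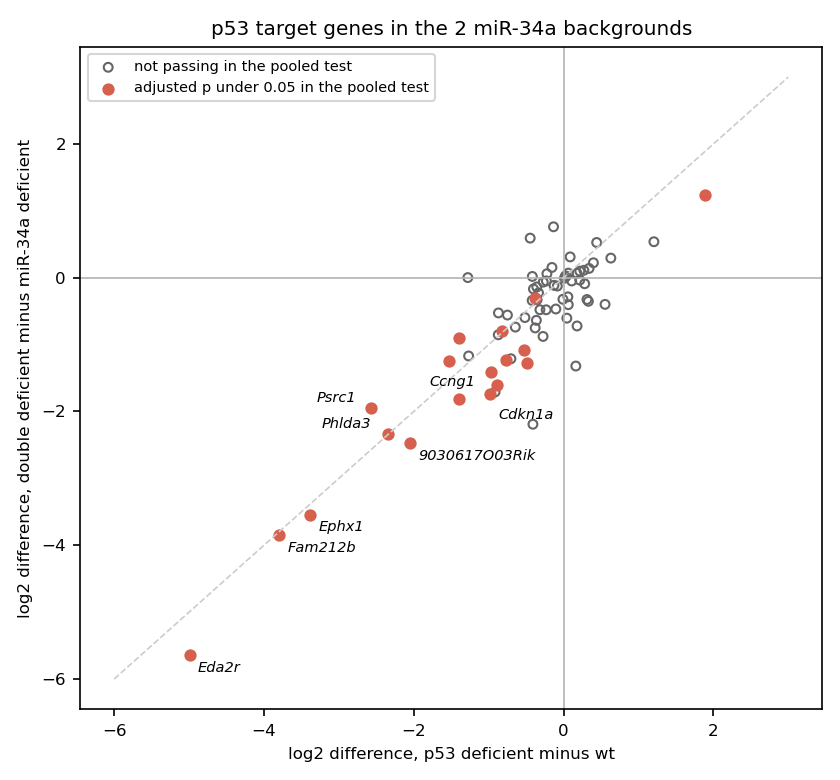
Log2 differences of the 73 p53 target genes with miR-34a present (x axis, p53 deficient minus wt) and with miR-34a lost (y axis, double deficient minus miR-34a deficient). Each point is a gene, filled where it passed the pooled test, and the dashed line marks equal differences. Eda2r, Fam212b, Ephx1, Phlda3 and 9030617O03Rik lie near the line.

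The cell cycle genes known to be repressed through p21 and DREAM lay mostly above 0. Of 42 tested, 10 rose and none fell, 41 lay above 0 (44.5% of all genes did), and the median was 0.50. Prc1, which bundles microtubules at cytokinesis, had values of 3704, 4577 and 4063 in wt, 3634, 3823 and 3916 in miR-34a deficient, 5327, 8395 and 6967 in p53 deficient and 6923, 6589 and 7278 in double deficient tumours. All Prc1 values lacking p53 exceeded all those with p53. Prc1 rose by 0.80 ± 0.11 (adjusted p = 0.00622), 1.74 times.

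Cdc20, an activator of the anaphase-promoting complex, rose by 0.65 ± 0.11 (adjusted p = 0.0153), again without overlap. Tpx2, which activates Aurora A, rose by 0.64 ± 0.13 (adjusted p = 0.0245), Birc5 (survivin) by 0.63 ± 0.13 (adjusted p = 0.0255) and Kif23, a cytokinesis motor, by 0.69 ± 0.15 (adjusted p = 0.0279). Of these 5, Prc1 alone passed without double deficient 3, and 1 of the 42 genes was then called. With the absent direction as a covariate 3 of the 42 rose. The library wt 3 had the highest values with p53 for Tpx2 (4876) and Birc5 (1493), and 26 of the 42 genes rose when it was left out. The proliferation marker Mki67, chosen after its values were seen, ranged from 5709 to 11344 with p53 and from 7526 to 13905 without (0.53 ± 0.18, adjusted p = 0.103).

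Genes of ribosome biogenesis had the highest share of calls among the lists of at least 10 genes. Of 30 tested 17 rose and none fell, 29 lay above 0, and the median was 0.45. The summed value of the list was between 183976 and 216125 in libraries lacking p53 and between 121933 and 161834 in those with p53, and the ranges did not overlap. Mybbp1a, a nucleolar protein that binds MYB and p53, had values of 5816, 5814 and 6183 in wt, 7137, 4731 and 6357 in miR-34a deficient, 12129, 10362 and 11504 in p53 deficient and 9476, 11655 and 11748 in double deficient tumours. Mybbp1a rose by 0.90 ± 0.11 (adjusted p = 0.00346), 1.86 times, without overlap.

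Ftsj3, an rRNA methyltransferase of the 60S pathway, ranged from 1845 to 2610 with p53 and from 3249 to 5764 without, and rose by 0.94 ± 0.12 (adjusted p = 0.00487). Ncl (nucleolin) rose by 0.67 ± 0.11 (adjusted p = 0.0136), Nop58, a core protein of the box C/D snoRNPs, by 0.60 ± 0.10 (adjusted p = 0.0142) and Npm1 (nucleophosmin) by 0.55 ± 0.10 (adjusted p = 0.0189). These 5 genes did not overlap between sides. Mybbp1a and Ftsj3 passed without double deficient 3, where 2 of the 30 genes were called. In the covariate fit 9 of 30 rose. Myc, the transcription factor that drives ribosome production, rose by 0.49 ± 0.12 (adjusted p = 0.0456), with values from 3761 to 5281 with p53 and from 4960 to 7862 without, and was called in 2 of the 12 fits that left out 1 library (highest adjusted p = 0.122, without double deficient 3). Of the 17 called biogenesis genes, 5 lie on chromosome 11, whose genes had a median difference of 0.17, among them Mybbp1a, Ftsj3 and Npm1.

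Glycolysis and hypoxia genes also lay mostly above 0. Of 27 tested 6 rose and none fell, 26 lay above 0, and the median was 0.66. Their summed value was between 336228 and 534916 in libraries lacking p53 and between 243966 and 323171 in those with p53. Pgk1 (phosphoglycerate kinase) had values of 22702, 19104 and 18450 in wt, 17850, 17213 and 17513 in miR-34a deficient, 26054, 42930 and 46398 in p53 deficient and 26652, 32630 and 39272 in double deficient tumours. Pgk1 rose by 0.89 ± 0.14 (adjusted p = 0.0116), 1.86 times, without overlap. Ldha (lactate dehydrogenase A) rose by 0.61 ± 0.13 (adjusted p = 0.0272), and Slc16a3, the lactate exporter MCT4, by 1.62 ± 0.35 (adjusted p = 0.0289). Slc16a3 was highest in double deficient tumours, at 4370, 5973 and 7788, against 1784, 1850 and 5007 in p53 deficient tumours. With the absent direction as a covariate 1 of the 27 rose. The number was 1 without miR-34a deficient 1, and without double deficient 3 Ldha and Slc16a3 both had an adjusted p of 0.0809.

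The 13 genes encoded by the mitochondrial genome all lay below 0, with a median of -0.56, and 2 fell. These were the complex I genes mt-Nd2, which fell by 0.82 ± 0.21 (adjusted p = 0.0434), and mt-Nd4, which fell by 0.76 ± 0.20 (adjusted p = 0.0483). Their summed value ranged from 980811 to 1865128 lacking p53 and from 1366913 to 2289045 with p53, which overlap. In the covariate fit neither passed, and without double deficient 3 the adjusted p was 0.101 for mt-Nd2 and 0.106 for mt-Nd4. Mitochondrial transcripts can also move with RNA quality, whose part in this result was not tested.

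Genes of goblet cells and of surface colonocytes lay mostly below 0. Of 18 goblet cell genes 4 fell and none rose, with a median of -1.28 and 17 below 0. Clca3, a secreted protein of goblet cell granules, had values of 49820, 39891 and 52572 in wt, 25027, 54227 and 5905 in miR-34a deficient, 9641, 4006 and 4483 in p53 deficient and 1563, 6131 and 1342 in double deficient tumours. The exception among libraries with p53 was miR-34a deficient 3, the library with high Krt5, which overlapped with those lacking p53. Clca3 fell by 3.09 ± 0.50 (adjusted p = 0.0120), 8.49 times. Zg16, a mucus lectin, fell by 4.52 ± 1.01 (adjusted p = 0.0312) and Tff3, a mucus peptide, fell by 2.58 ± 0.64 (adjusted p = 0.0416). Of the 12 fits that left out 1 library, Zg16 passed in 6 and Tff3 in 2 (adjusted p = 0.0874 and 0.106 without double deficient 3), while Clca3 passed in all 12. Among libraries lacking p53, Zg16 was highest in p53 deficient 1 (78510) and ranged from 721 to 22416 in the other 5. Muc2, the main colonic gel mucin (-2.26 ± 0.61, adjusted p = 0.0523), did not pass. Without miR-34a deficient 3 the number of goblet genes that fell was 8, and without wt 1 it was 2.

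Of 27 surface colonocyte genes 6 fell and none rose, with a median of -1.12. Aqp8, a water channel, had values of 298, 238 and 249 in wt, 209, 150 and 42 in miR-34a deficient, 162, 52 and 53 in p53 deficient and 0, 10 and 1 in double deficient tumours. Aqp8 was near 0 in double deficient tumours and intermediate in p53 deficient ones, and fell by 3.53 ± 0.76 in the pooled comparison (adjusted p = 0.0273). Car4, a carbonic anhydrase, fell by 2.54 ± 0.51 (adjusted p = 0.0231), Guca2a (guanylin) fell by 1.76 ± 0.42 (adjusted p = 0.0365) and Tmigd1, a brush border adhesion gene, fell by 1.64 ± 0.34 (adjusted p = 0.0248). No colonocyte gene was called without double deficient 3. With the absent direction as a covariate 2 colonocyte genes (Car4 and Saa1) and 2 goblet genes (Clca3 and Tpsg1) fell. Of these, Saa1 and Tpsg1 are given again below among the largest falls.

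**Figure D3:**
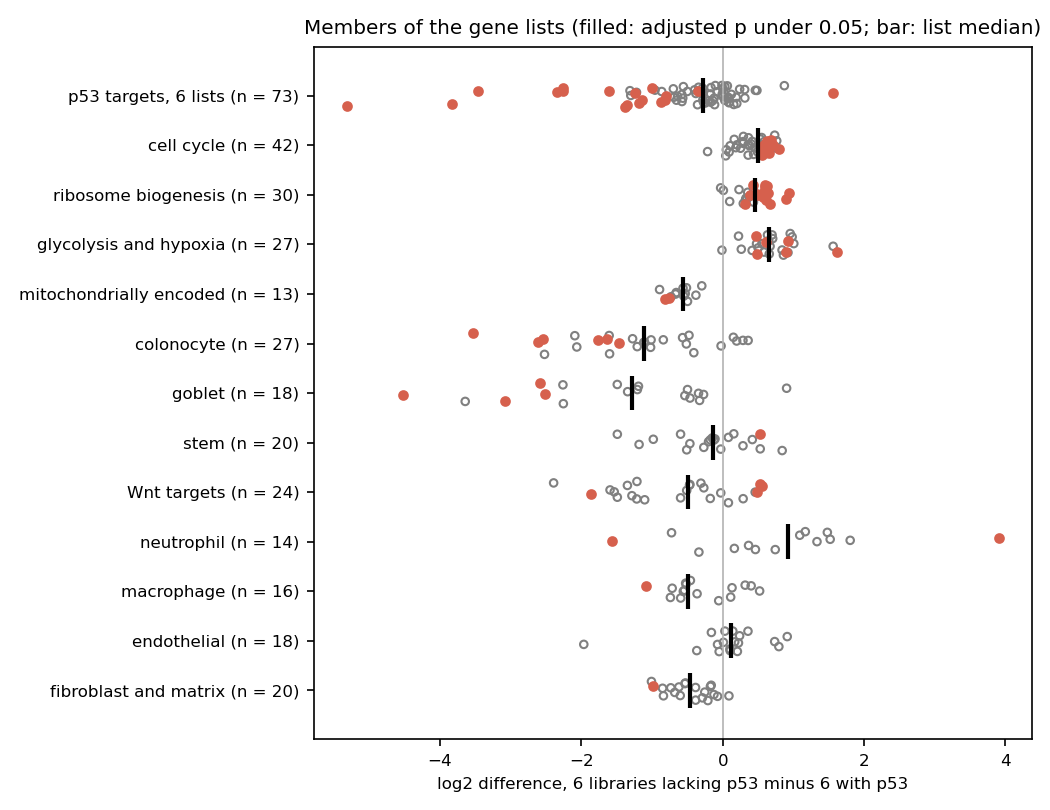
Log2 differences (libraries lacking p53 minus those with p53) of the members of 13 gene lists, 1 open or filled point per gene and a bar at each list's median, with vertical scatter only to separate points. Filled points passed the pooled test. Ribosome biogenesis and cell cycle members lie almost wholly above 0, and colonocyte and goblet members mostly below.

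Fewer genes of the other epithelial lists were called. Of 16 genes expressed across the epithelium 1 fell (Phgr1, at -1.04 ± 0.22, adjusted p = 0.0279), and the list median was 0.06. Among 20 stem cell genes 1 rose, the Eph receptor gene Ephb2, by 0.53 ± 0.12 (adjusted p = 0.0345) and without overlap, and the median was -0.14. Of 24 Wnt target genes 3 rose (Ephb2, Cd44 and Myc) and 1 fell, the secreted Wnt inhibitor gene Wif1, which fell by 1.86 ± 0.42 (adjusted p = 0.0309), with a list median of -0.49. Cd44, a hyaluronan receptor, had values from 13667 to 19911 with p53 and from 20080 to 24535 without, and rose by 0.55 ± 0.10 (adjusted p = 0.0189). Without double deficient 3 Phgr1, Ephb2 and Wif1 did not pass (adjusted p = 0.0798, 0.0937 and 0.0796), and Cd44 did (adjusted p = 0.0490). No gene of the tuft cell list was called (6 of 12 above 0, median -0.10). Of 18 enteroendocrine genes 1 was higher (Scg5, adjusted p = 0.123 without double deficient 3), 9 lay above 0, and the median was -0.03. With the absent direction as a covariate no gene of the epithelium-wide, stem cell or enteroendocrine lists was called, and of the Wnt targets Cd44 alone.

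Markers of other cell types in the tumour were read beside these groups. None of 18 endothelial, 13 smooth muscle, 12 mast cell, 17 T and NK cell or 11 B and plasma cell genes was called. The T cell gene Cd3e had values of 2 to 9 in every library. The neutrophil list had 1 gene higher (Retnlg) and 1 lower (Padi4) of 14, a median of 0.92, and summed values from 8021 to 18019 lacking p53 and from 8766 to 26791 with p53. Retnlg, a neutrophil secreted peptide, was at most 4 with p53, at 28, 0 and 18 in p53 deficient and at 86, 73 and 32 in double deficient tumours (adjusted p = 0.0256, and 0.0681 without double deficient 3). The neutrophil calprotectin gene S100a8, at 12 to 554 lacking p53 and 10 to 189 with p53, did not pass (adjusted p = 0.268). Their part in the other results was not tested.

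Of 20 fibroblast and matrix genes Vim (vimentin) was the 1 called, and it fell by 0.99 ± 0.19 (adjusted p = 0.0217), and the list median was -0.46. Of 16 macrophage genes Mertk, a receptor for dying cells, fell by 1.08 ± 0.20 (adjusted p = 0.0195), with values of 130 to 186 with p53 and 55 to 113 without. Among genes of epithelial-mesenchymal transition Vim and the repressor gene Snai2 fell, while the urokinase receptor gene Plaur rose (by 1.06 ± 0.22, adjusted p = 0.0247). Of 23 inflammation genes 2 rose, the granulocyte growth factor gene Csf3 and Nfkbiz, and the median was 0.72. Without double deficient 3 none of Vim, Mertk, Snai2, Plaur, Csf3 and Nfkbiz passed (adjusted p between 0.0630 and 0.107).

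The lists that follow had at most 2 genes called in either direction. Over all genes 2.16% were called higher and 2.65% lower, and in lists of 12 to 26 genes 1 call is already a larger share. The interferon response had 1 gene higher of 26 (Psmb8), squamous genes 1 higher of 12 (Sprr1a) and cholesterol synthesis 1 lower of 22 (Dhcr7). Antimicrobial genes had 1 higher (Nos2) and 1 lower (Pla2g2a) of 16, with 12 above 0 and a median of 0.40. The unfolded protein response had 2 higher (Trib3 and Asns) and 1 lower (Sesn2) of 15, and none of 15 NRF2 targets was called. Psmb8, Sprr1a, Dhcr7, Pla2g2a, Trib3 and Asns missed the threshold without double deficient 3 (adjusted p between 0.0943 and 0.108), while Nos2 and Sesn2 passed. With the absent direction as a covariate Vim, Plaur, Mertk, Padi4, Nos2 and Sesn2 passed, and no gene of the inflammation, interferon, squamous or cholesterol lists did.

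By size, the 12 largest falls among called, named and non-overlapping genes included Trp53, Eda2r, Fam212b and Ephx1 from above. Irx5, a homeobox gene, had values of 1473, 3704 and 6427 in wt, 4153, 4890 and 7795 in miR-34a deficient, 1080, 44 and 233 in p53 deficient and 552, 392 and 239 in double deficient tumours. Irx5 fell by 3.86 ± 0.62 (adjusted p = 0.0116), 14.5 times. Slc30a2, a zinc transporter, had values from 13555 to 53560 with p53 and from 1140 to 5800 without, and fell by 2.68 ± 0.36 (adjusted p = 0.00536). St8sia2, a polysialyltransferase gene, fell by 2.97 ± 0.48 (adjusted p = 0.0116). Its values were 228, 472 and 210 in wt, 1265, 1035 and 2225 in miR-34a deficient tumours and 60 to 134 in those lacking p53. The St8sia2 difference was -1.57 with miR-34a present and -4.37 with it lost (interaction adjusted p = 0.248).

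Tpsg1, a membrane tryptase, fell by 2.51 ± 0.37 (adjusted p = 0.00979). The acute phase genes Saa1 and Saa2 differed by -2.61 ± 0.49 and -2.65 ± 0.48 (adjusted p = 0.0195 and 0.0174), and as close copies they may share reads. Cyp2f2, a cytochrome P450, fell by 3.36 ± 0.65 (adjusted p = 0.0207), and the sulfotransferase gene Sult4a1 fell by 2.56 ± 0.45 (adjusted p = 0.0158). The Cyp2f2 difference was -1.62 with miR-34a present and -5.11 with it lost (interaction adjusted p = 0.361). Saa1, Saa2, Cyp2f2 and Sult4a1 missed the threshold without double deficient 3 (adjusted p between 0.0539 and 0.0630), and the other 4 of these 8 genes passed in each fit that left out 1 library.

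Among the 12 largest rises were 3 hemoglobin genes. Hba-a1 had values of 72, 373 and 133 in wt, 98, 217 and 171 in miR-34a deficient, 489, 7721 and 3931 in p53 deficient and 6379, 853 and 3068 in double deficient tumours. Hba-a1 rose by 4.02 ± 0.67 (adjusted p = 0.0136), Hbb-bt by 3.65 ± 0.61 (adjusted p = 0.0136) and Hbb-bs by 3.61 ± 0.70 (adjusted p = 0.0208, and 0.0630 without double deficient 3). Hemoglobin genes have near-identical copies that can share reads, so the split between them is uncertain. The summed hemoglobin value was 386 to 1526 with p53 and 1665 to 31177 without. These transcripts are made by red blood cell precursors, and the amount of blood in each sample was not measured.

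The peptide hormone gene Apln (apelin), known for its role in vessel growth, had values of 46, 107 and 56 in wt, 84, 60 and 176 in miR-34a deficient, 233, 346 and 371 in p53 deficient and 582, 315 and 588 in double deficient tumours. Apln rose by 2.27 ± 0.30 (adjusted p = 0.00534), 4.81 times. The inducible nitric oxide synthase gene Nos2 had values of 407, 841 and 1391 in wt, 326, 890 and 611 in miR-34a deficient, 2679, 3959 and 5029 in p53 deficient and 2367, 2157 and 2217 in double deficient tumours. Nos2 rose by 2.13 ± 0.30 (adjusted p = 0.00722), 4.38 times. Neither gene overlapped between sides, which was a condition for being named among the largest changes.

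Sat2, a diamine acetyltransferase gene that lies 0.0417 Mb from Trp53, had values from 19 to 41 with p53 and from 92 to 228 without. Sat2 rose by 2.26 ± 0.27 (adjusted p = 0.00346). Slc7a5, the large neutral amino acid transporter LAT1, rose by 1.37 ± 0.25 (adjusted p = 0.0193), and the pseudokinase gene Trib3 by 2.03 ± 0.51 (adjusted p = 0.0430). The remaining rises were those of Rgs4 (2.12 ± 0.44, adjusted p = 0.0253), Hoga1 (1.79 ± 0.36, adjusted p = 0.0235), Chit1 (1.61 ± 0.41, adjusted p = 0.0451) and Tmem40 (1.55 ± 0.23, adjusted p = 0.00942). Slc7a5, Trib3, Rgs4, Hoga1 and Chit1 missed the threshold without double deficient 3 (adjusted p from 0.0630 to 0.122), while Sat2 and Tmem40 passed.

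**Figure D4:**
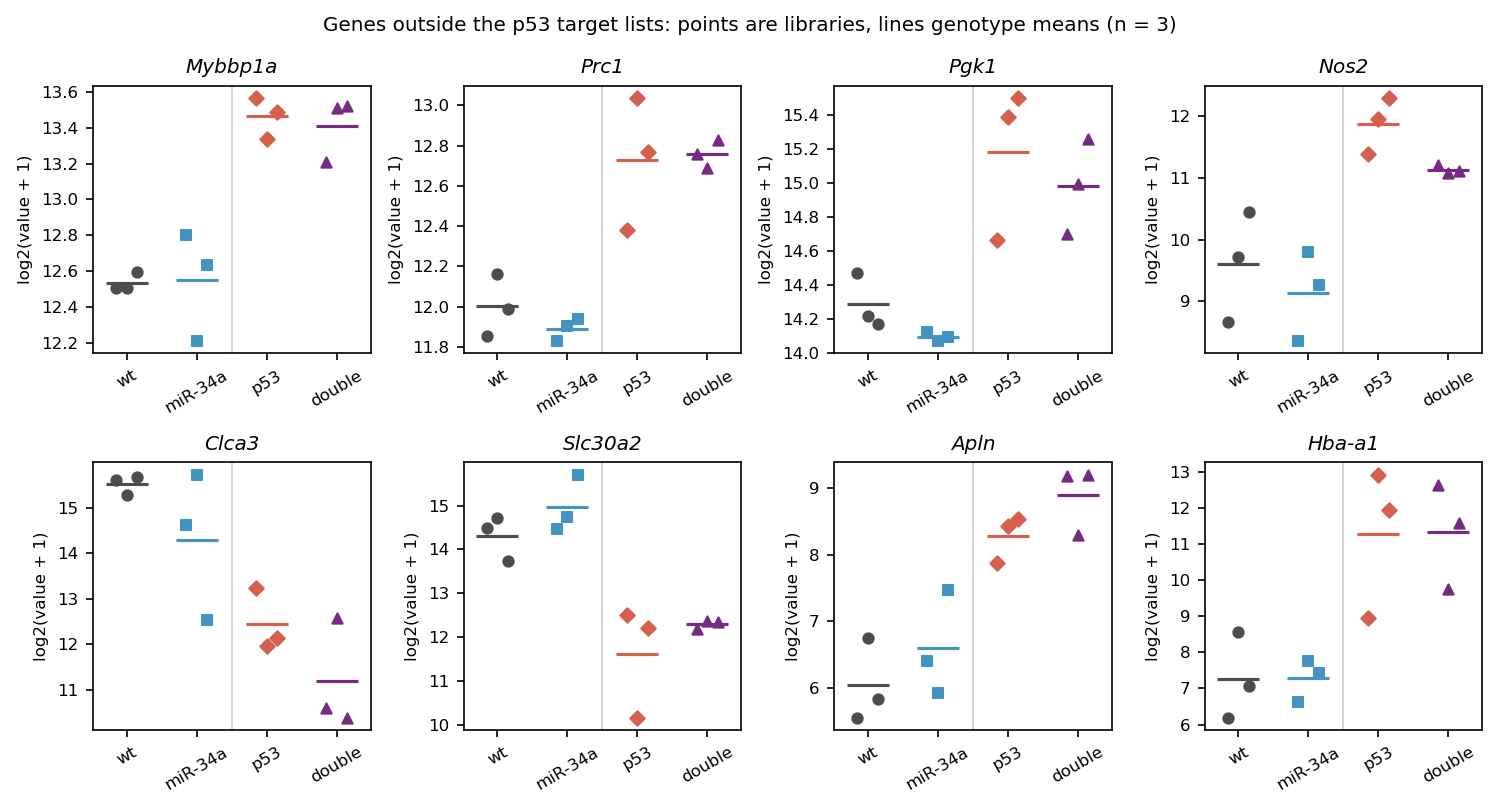
Values of 8 genes outside the p53 target lists in each library, on log2(value + 1) axes that do not start at 0, with points for libraries and lines for genotype means (n = 3). Mybbp1a, Prc1, Pgk1, Nos2, Apln and Hba-a1 are higher and Slc30a2 is lower in all libraries lacking p53, and Clca3 overlaps through miR-34a deficient 3.

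The calls were unevenly spread over the chromosomes. Of 14109 placed genes with a mean value of 50 or more, 2.87% were called higher and 3.18% lower. On chromosome 11, which carries Trp53, 118 of 1139 genes (10.4%) were called higher and 19 (1.67%) lower. The median difference there was 0.17, and 67.3% of its genes lay above 0, against 46.0% of all genes. The library medians of chromosome 11 genes lay between -0.01 and 0.22 in libraries lacking p53 and between -0.21 and -0.02 in those with p53, without overlap. The chromosome 11 median was 0.20 with miR-34a present and 0.14 with it lost. The shift was not limited to the neighbourhood of Trp53, since the 870 genes at least 10 Mb away had a median of 0.17, with 89 called higher and 16 lower. Under the covariate for the absent direction 51 chromosome 11 genes were called higher, and without double deficient 3 the number was 17.

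More genes were called lower than higher on most other chromosomes, and as a share of genes the excess was largest on chromosomes 4, 13 and 17. On chromosome 4, 57 of 915 genes (6.23%) fell and 17 (1.86%) rose. On chromosome 17, 34 of 715 genes (4.76%) fell and 4 (0.559%) rose, and on chromosome 13 the median was -0.23, with 25 genes lower and 3 higher of 538. The chromosome 13 median of p53 deficient 1 was 0.16, against -0.32 to -0.04 in the other 5 libraries lacking p53, so 1 library lay with those that have p53. On chromosome 17 the library median of double deficient 2 stood alone at -0.43, and the median difference was -0.02 with miR-34a present and -0.19 with it lost. With each library centred per chromosome, chosen after seeing the data, 964 genes were called and 47 chromosome 11 genes were called higher. Npm1 was not called under this centring, while Mybbp1a and Ftsj3 were. The copy number of these chromosomes was not measured.

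**Figure D5:**
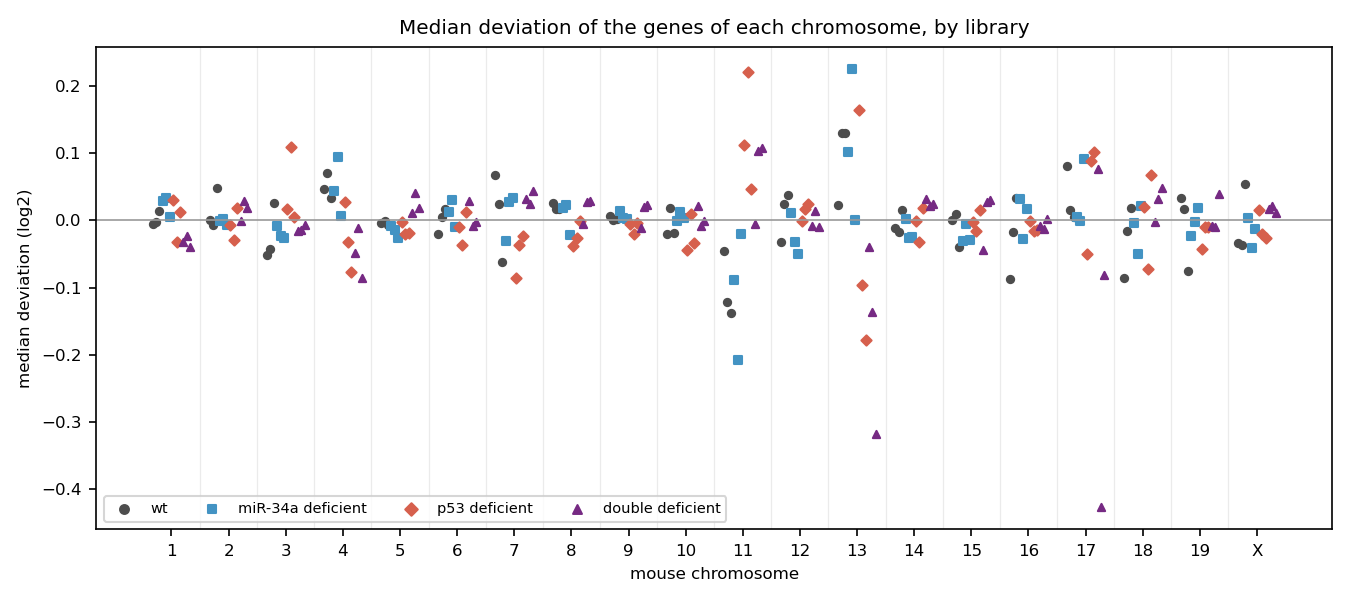
Median log2 deviation of the genes of each mouse chromosome (mean value 50 or more) from their mean over the 12 libraries, 1 point per library, coloured and shaped by genotype. Chromosome 11 medians of the libraries lacking p53 lie above those of the libraries with p53, and chromosome 13 medians lie below except for p53 deficient 1.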

How the data were processed

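Tumour RNA was purified with RNAeasy columns and sequenced as Illumina libraries, per the labels' protocols. What the authors deposited is 1 table of 21792 genes with score values, normalised and rounded to integers. Per the submitters' processing notes the build was mm10, while the aligner, the counting and the normalisation are not known here, nor is the depth, so no count model and no counting interval was used.

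Values were taken as log2(value + 1) without rescaling, and 21322 genes with a mean of at least 1 were fitted with limma 3.58.1 in R 4.3.3. The model had a p53 and a miR-34a term, a trend in the prior variance and 9 residual degrees of freedom, which include the absent direction. Contrasts within a miR-34a background and the interaction came from a fit with 1 mean per genotype. The procedure was run on simulated data, with no outcome given here, and its share of false calls in these libraries was not tested. The absent direction was read from 9791 genes with a mean of at least 500 (8th singular value 0.179, 7th 32.2), and its covariate left 8 residual degrees of freedom.

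Gene positions are those of GENCODE M21 (GRCm38), matched by symbol or synonym for 97.4% of genes, and promoters are those of RefSeq (GRCm38.p6). The genes named are Trp53, 16 fixed genes, the 12 largest called changes in each direction (mean value of at least 50, a symbol that is not a clone name, no overlap, same sign in both backgrounds) and up to 5 called members of each of 38 lists with the smallest p. A gene named outside this rule was chosen after its values were seen. The comparison, its members and the lists were chosen with earlier results of these data known. Alternatives covered scaling, pseudocount, filters, the prior, model terms, covariates and leaving out libraries. The values of 1 gene that is counted in the lists are not reported here.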

Additional observations from a re-analysis of the deposited data

Results flagged for a closer look

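Trp53, the 16 fixed genes and the 24 largest changes gave 74 groups of 6 libraries. In 7 of these groups 1 library stood apart from the other 5 on its side of the comparison. The threshold flags about 1 in 20 groups of independent, normally distributed values. These groups share libraries and many of the genes were chosen for large changes, so that rate does not apply to them. With p53 present, wt 3 was low for Ephx1 (644) and for 9030617O03Rik (302), and miR-34a deficient 2 was high for Tpsg1 (997) and low for Slc7a5 (280). With p53 lost, p53 deficient 1 was low for Bax (1836), and p53 deficient 2 was low for Slc30a2 (1140) and high for Trib3 (1724).

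The p53 difference depended on miR-34a status for 5 genes (0.0234%) by the interaction test, against 1683 at an unadjusted p under 0.05. In each the difference was negative with miR-34a lost (-6.38 to -3.40). With miR-34a present it was -0.50 for Fshr and -0.24 for Gm10093, and above 0 for Gm12196 (1.02), Gm15195 (0.35) and Gm7125 (0.20). Fshr, the follicle-stimulating hormone receptor gene on chromosome 17, stood at 1321, 1712 and 1264 in p53 deficient tumours, at 58, 33 and 32 in double deficient ones, and between 1002 and 2737 in the 6 libraries with p53, an interaction of -4.465 ± 0.46 on the log2 scale (adjusted p = 0.00779). The other 4 are predicted genes whose reads can be shared with near-identical copies, Gm15195 (-6.73), Gm10093 (-4.79), Gm7125 (-4.49) and Gm12196 (-4.42). A covariate for the Y-linked level left 1 interaction called.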

How the results depend on the processing

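The number of genes called depended on the libraries and covariates used. The count of 1027 (461 higher, 566 lower) was 662 with 252 higher without a trend in the prior variance, and 299 with 136 higher and 163 lower with the absent direction as a covariate. It was 480 (198 higher, 282 lower) when both libraries with a different run code were left out, and 52 (19 higher, 33 lower) without p53 deficient 2 and double deficient 3 together, which was chosen after seeing the data. Leaving out 1 library in turn gave between 92 (without double deficient 3) and 1282 calls (without p53 deficient 1), between 35 and 622 higher and between 57 and 744 lower. The cause was not tested.

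With miR-34a present the count of 5 was 2 with the absent direction, 1 with the Y-linked level and 3 with a pseudocount of 10, and 1 to 88 without 1 library. With miR-34a lost the count of 193 was 57 with the absent direction, 73 with the Y-linked level, and 23 to 246 without 1 library. The 5 interaction calls were 2 with the absent direction, 1 with the Y-linked level, and 2 to 10 without 1 library. Whether replicate numbers pair the samples was not settled. Of 18 same-number pairs 7 correlated above 0.1 (range -0.21 to 0.50), and different-number pairs were not set beside them. The highest value was that of p53 deficient 3 with double deficient 3. With the replicate block the pooled count was 894, the counts were 2 with miR-34a present and 141 with it lost, and the interaction count was 3.

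Of the 88 named genes, Pmaip1 and Sfn, neither called, changed sign. Pmaip1 was 0.027 after median-of-ratios and 0.010 after upper-quartile scaling, and -0.10 to 0.11 without 1 library. Sfn was 0.031 after median-of-ratios, 0.033 after quantile and 0.014 after upper-quartile scaling, 0.13 without the other run code, 0.10 with chromosome centring, and -0.21 to 0.27 without 1 library. Of 82 called named genes 27 passed without double deficient 3, and the same 27 genes passed in all of the fits that left out 1 library. With the absent direction as a covariate 47 passed. Under every alternative 17 passed, which were Trp53, Ccng1, Eda2r, Ephx1, 9030617O03Rik, Fam212b, Sesn2, Phlda3, Psrc1, Irx5, Slc30a2, Tpsg1, Apln, Sat2, Prc1, Mybbp1a and Ftsj3. Without counts, the precision of low values such as those of Retnlg, Csf3 and Cyp2f2 is unknown.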

Other observations

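The 8 genes given here were chosen after their values were seen and belong to no list, so they describe no group of genes. Both serine hydroxymethyltransferase genes rose, which move serine carbon into the folate cycle. The cytosolic Shmt1 ranged from 1556 to 2306 with p53 and from 3004 to 3731 without (0.82 ± 0.13, adjusted p = 0.0116), and the mitochondrial Shmt2 from 1688 to 2157 and from 2886 to 5978 (0.95 ± 0.16, adjusted p = 0.0136). Slc19a1, the reduced folate carrier, rose by 0.52 ± 0.08 (adjusted p = 0.0120), and Slc7a1, a transporter of cationic amino acids, by 1.06 ± 0.18 (adjusted p = 0.0136). Tfrc, the transferrin receptor that takes up iron, had values of 3011, 1948 and 3115 in wt, 3338, 2574 and 2346 in miR-34a deficient, 4839, 3594 and 5180 in p53 deficient and 10687, 8630 and 10378 in double deficient tumours. Tfrc rose by 1.31 ± 0.21 (adjusted p = 0.0120) and was highest in double deficient tumours. None of these 5 genes overlapped between sides, and without double deficient 3 their adjusted p lay between 0.0454 and 0.0490.

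The Wnt ligand genes Wnt10a and Wnt4 and the gene Nfe2l2 were among those that fell. Wnt10a had values of 3813, 11805 and 3469 in wt, 5713, 8347 and 9764 in miR-34a deficient, 980, 414 and 1738 in p53 deficient and 1868, 2180 and 2121 in double deficient tumours, and fell by 2.26 ± 0.36 (adjusted p = 0.0120). Wnt4, at 57 to 134 with p53 and 7 to 35 without, fell by 2.26 ± 0.37 (adjusted p = 0.0120). Nfe2l2, the gene of the antioxidant regulator NRF2, fell by 0.95 ± 0.16 (adjusted p = 0.0120), from a range of 9176 to 16399 to one of 4781 to 8793, while none of the 15 NRF2 target genes tested was called. Without double deficient 3 the adjusted p was 0.0442 for Wnt10a and 0.0454 for both Wnt4 and Nfe2l2.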
